A study of Homo sapiens with 8 samples.

Results

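PRNP, the gene of the prion protein, was followed through the input and m6A libraries of HCT116 cells treated with Fusobacterium nucleatum (F. nucleatum) or with PBS as Control. It was 1 of 19475 entries of the expression table and gave 10 of the 70751 peaks in the 4 peak lists, and these were taken by the gene name. The gene was selected on its FPKM in these same libraries, namely on its large increase after F. nucleatum, so its mRNA levels and its rank are given as a description without a test.

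HCT116 is an established human colorectal carcinoma line, and all groups came from this one line. Cells received PBS or F. nucleatum for 2 h, per the methods of the study. Poly(A) RNA was fragmented, and fragments bound by an antibody against N6-methyladenosine (m6A), the commonest internal modification of mRNA, were sequenced as IP beside the unselected input. Input and IP were each sequenced from 2 biological replicates of either treatment, 8 libraries in all, and every peak list contrasts a single IP with its own input.

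The prion protein is a glycoprotein held at the cell surface by a glycosylphosphatidylinositol (GPI) anchor, and it binds copper. It is best known from prion diseases, in which a misfolded form accumulates in the brain, but its mRNA is present in many tissues, epithelia included. Its whole coding sequence lies in a single exon. m6A is deposited by the METTL3 complex, mostly in long internal exons and near stop codons, at a consensus whose core is GGAC.

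PRNP lies on chromosome 20, from 4666996 to 4682236 on the plus strand of GRCh37, the assembly also called hg19. GENCODE release 44 gives it 4 transcripts of 2 exons each, which differ mainly in exon 1, and no other annotated gene overlaps it. The coding sequence (CDS) with the stop codon runs from 4679867 to 4680628 (762 nt), followed in the same exon by a 3′UTR of up to 1608 nt. On the strand of the mRNA the exons and peaks held 11 GGAC motifs, and 6 of them lay inside a peak in all 4 lists. Only GGAC was searched, and other forms of the consensus were not. Of these 6, the 5′UTR motifs lie in exon 1 of the transcript PRNP-204 and in no exon of the other transcripts. The 6 are shown as matches of this core within the peaks, from GRCh37 in the order of the gene with GGAC in capitals.
5′UTR, chr20:4667209-4667232: ggccgagtgaGGACcccgggcctc
5′UTR, chr20:4667261-4667284: ggcggggtcgGGACcccagtgagg
CDS, chr20:4680100-4680123: tggtggctggGGACagcctcatgg
CDS, chr20:4680294-4680317: gtgactatgaGGACcgttactatc
3′UTR, chr20:4680888-4680911: tggttaatctGGACttatttttgg
3′UTR, chr20:4680900-4680923: acttatttttGGACttagtgcaac
The other 5 motifs were further along the 3′UTR, beyond the last peak base, and lay in no peak of any list. A motif in a peak is a match of letters and not a measured methylation site.

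PRNP mRNA was higher in the F. nucleatum libraries. It was at 6.63 FPKM (fragments per kilobase of transcript, scaled to the mapped fragments of the library) in Control 1 and at 6.51 FPKM in Control 2. In F. nucleatum 1 it was at 51.6 FPKM and in F. nucleatum 2 at 48.4 FPKM. The groups did not overlap, and the libraries of a group lay close together. Both F. nucleatum libraries were above both Control libraries in 26.1% of the 11088 genes whose mean reached 1 FPKM, and below them in 21.1%. The mean level went from 6.57 ± 0.0838 to 49.98 ± 2.26 FPKM (SD, n = 2 each), a ratio of 7.61 and a difference of 2.75 on the log2(FPKM + 1) scale. The Control level was below the median gene, with 40.2% to 40.5% of the genes lower, whereas 86.9% to 87.8% of the genes were lower than PRNP in the F. nucleatum libraries. In bulk libraries fewer cells with an mRNA and less of it per cell cannot be told apart.

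By the log2 difference PRNP had rank 6 of 11088 genes, by the ratio of FPKM it had rank 10, and by the difference in FPKM it had rank 56. A ratio of at least 4 was reached by 18 genes (0.162%), PRNP among them. The genes just above PRNP were LOC107984974 with a log2 difference of 3.01, CXCL2 with 2.99 and CCL20 with 2.95, and those just below were CXCL3 with 2.47, NFKBIA with 2.06 and NUAK2, which had rank 9. CXCL2 and CXCL3 are chemokines that attract neutrophils, CCL20 is a chemokine for CCR6-bearing lymphocytes, NFKBIA is the NF-κB inhibitor IκBα, and NUAK2 is a kinase of the AMPK family. Among these genes PRNP differed in its starting level. Only NFKBIA, at 19.6 and 20.7 FPKM, had a higher level than PRNP in both Control libraries.

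LOC107984974 stood apart in this ranking. It was listed at 0.00853 FPKM in Control 1 but at 62.1 FPKM in Control 2, near the 62.7 and 64.2 FPKM of the F. nucleatum libraries. Its difference therefore came from 1 library. Differences between replicates as large as that of PRNP between groups (at least 2.75 on the log2 scale) were found in 1 of 11088 genes between the Control libraries and in 2 between the F. nucleatum libraries. As PRNP was selected on its difference, these counts describe the spread of the replicates and do not test PRNP. PRNP itself differed by 0.0226 between the Control and by 0.0904 between the F. nucleatum libraries on this scale, where the medians of all genes were 0.103 and 0.0733.

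**Figure D1:**
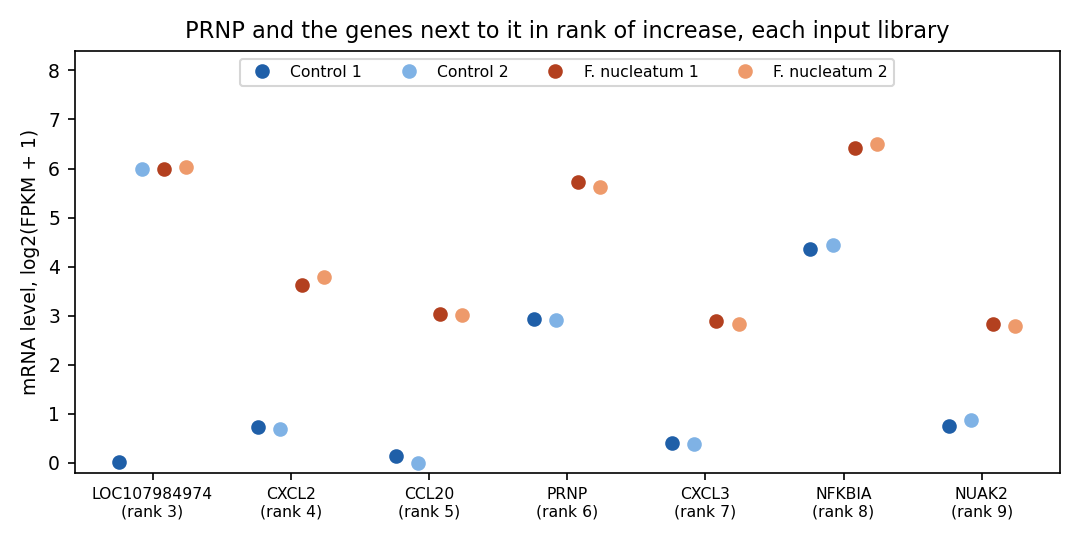
mRNA level as log2(FPKM + 1) of PRNP and of the 3 genes above and below it in rank, with 1 point for each of the 4 input libraries. PRNP sits near 3 in both Control and above 5 in both F. nucleatum libraries, and for LOC107984974 only Control 1 is low.

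The profile of PRNP over the 4 input libraries, taken as log2(FPKM + 1) after subtracting each gene's mean, was nearest to that of CCL20 with a Euclidean distance of 0.226. CXCL3 with 0.283, CXCL2 with 0.301, NFKBIA with 0.706 and NUAK2 with 0.760 followed. With 4 libraries this measure orders genes mainly by the size of the difference between the groups. 

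The differences of the genes around PRNP were far smaller. Of the 8 other protein-coding genes within 500 kb, 6 were tested, and 0 were called by limma at an adjusted p under 0.05, with 1 at an unadjusted p under 0.05. Over all 11088 genes 0.803% were called, 74 higher (0.667%) and 15 lower (0.135%), and 13.5% (1496 genes) had an unadjusted p under 0.05. The log2 differences of the neighbours ran from -0.18 for SLC23A2, a vitamin C transporter, to 0.30 for SMOX, a spermine oxidase. RASSF2 (0.18), CDS2 (0.11), TMEM230 (-0.02) and PCNA, the sliding clamp of DNA replication (-0.14), lay in between. ADRA1D, an adrenergic receptor, was at 0.0503 to 0.0742 FPKM and not tested.

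No other gene of the prion family passed the filter. PRND, the gene of the prion-like protein doppel, begins 20319 bp downstream of PRNP and was listed at 0 FPKM in all 4 libraries. SPRN, the gene of the prion-like protein shadoo, had 0.658 and 0.166 FPKM in the Control libraries, where F. nucleatum libraries had 0.240 and 0.122. These values are under the filter of 1 FPKM, and the groups overlapped.

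Next, genes that act with the prion protein were examined, with the change of each taken from the same fit over all genes. The median log2 difference over all tested genes was 0.01. Counts of called genes are to be read against the 0.667% of all tested genes called higher and the 0.135% called lower. The counts at an unadjusted p under 0.05 are to be read against the 13.5% of all tested genes. In the GPI-anchor synthesis list, 0 of 26 tested members were called by limma, 3 had an unadjusted p under 0.05, and the median was -0.0005. DPM1, a subunit of the mannose donor synthase and the most abundant member, had 53.7 and 74.7 FPKM in the Control libraries, and the F. nucleatum libraries, with 75.1 and 72.1 FPKM, overlapped them.

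Of 24 tested genes of other GPI-anchored surface proteins, 2 were called higher by limma and 0 lower, against 0.667% and 0.135% of all tested genes. The median of the list was 0.08, and 6 members had an unadjusted p under 0.05. EFNA1, an ephrin ligand, went from 14.6 and 16.2 FPKM to 29.6 and 29.4 FPKM (log2 difference 0.90, SE 0.073, limma adjusted p 0.0114). PLAUR, the urokinase receptor, went from 41.1 and 42.9 FPKM to 76.9 and 80.1 FPKM (log2 difference 0.89, SE 0.059, limma adjusted p 0.00601). In both genes the groups did not overlap, and the increase was less than 2-fold. LY6E, the most abundant member, was at 197 to 211 FPKM with overlapping groups.

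Among the enzymes that cleave the prion protein and its binding partners, 0 of 15 tested members were called by limma and 0 had an unadjusted p under 0.05 (median 0.06, range -0.12 to 0.24). RPSA, the laminin receptor and a ribosomal protein, was the most abundant, at 2397 to 2586 FPKM (log2 difference 0.06). In the copper handling list 0 of 15 were called and 2 had an unadjusted p under 0.05 (median 0.05, range -0.26 to 0.24), and its most abundant member, the metallothionein MT2A, was at 1286 to 1664 FPKM with overlapping groups.

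Of 20 tested ER stress genes, 2 were called higher by limma and 0 lower, against 0.667% and 0.135% of all tested genes. The median of the list was 0.11, and 6 members had an unadjusted p under 0.05. ATF3, a stress-induced transcription factor, went from 4.52 and 5.38 FPKM to 16.4 and 17.5 FPKM (log2 difference 1.60, SE 0.097, limma adjusted p 0.00482). PPP1R15A, which directs dephosphorylation of eIF2α, went from 52.1 and 55.5 FPKM to 81.3 and 84.2 FPKM (0.61, SE 0.060, limma adjusted p 0.0194). Both are also induced by stresses outside the ER. CALR, a chaperone of the ER lumen and the most abundant member, was at 557 to 603 FPKM (log2 difference -0.07, not called). The members at an unadjusted p under 0.05 beside ATF3 and PPP1R15A were HERPUD1 (0.30), XBP1 (0.21), HSPA5 (0.20) and SDF2L1 (-0.23). None of these was called, and they were named after their values had been seen. The call on PPP1R15A was lost without a filter on low values (limma adjusted p 0.0528) and without the variance trend (0.0541). All 4 calls in these lists were lost when either F. nucleatum library was left out, with limma adjusted p-values from 0.0668 to 0.242.

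The m6A peaks of PRNP were then described. Merging the lists gave 2 regions for PRNP, and both had a peak in all 4 lists, as did 51.5% of 22001 regions over all genes. Neither was lost or gained, where lost means a peak in both Control and in neither F. nucleatum list (2.64% of all regions) and gained the reverse (2.38%).

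The first region, from 4667039 to 4667279, lay within the stretch of the alternative first exons, which are 5′UTR, without reaching either end of it. The region took in 30 nt between these exons that are in no GENCODE exon. The score of its peak was read as a p-value throughout, although the deposited lists call it only a score and do not state whether it was corrected. It was 4e-17 in Control 1 and 2e-44 in Control 2, against 3.2e-16 and 2.3e-07 in F. nucleatum 1 and 2. The F. nucleatum lists thus had the weaker p-values, although Control 1 and F. nucleatum 1 were close. On the −log10 scale the mean was 30.0 ± 19.3 in Control and 11.1 ± 6.26 in F. nucleatum lists (SD, n = 2 each, two-sided exact permutation p 0.333, the smallest that 2 against 2 lists can give). This test was not among those planned. Weaker p-values in both F. nucleatum than in both Control lists were found in 18.9% of the 11341 regions shared by all lists. The region spanned 241 nt with a GC content of 78.8%, against a median of 51.9% in the 1013 other regions of like length (within 10%). It held 2 GGAC motifs, and 32.0% of those other regions held at least as many, with a median of 1. At least 1 was held by 69.1% of them.

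The second region covered nearly the entire CDS and the start of the 3′UTR. In Control 1 it was a single peak of 1078 nt (4679872 to 4680949) with a p-value of 1e-190. In Control 2 it was a single peak of 1078 nt with a p-value listed at 0. This peak had 15 nt at the end of exon 1 of PRNP-204 and 1063 nt from 4679857 to 4680919. A listed 0 stands for a value below what the list holds, the smallest above 0 in that list being 9e-307. In both F. nucleatum lists this stretch was called as 2 peaks. In F. nucleatum 1 a peak of 660 nt ended at 4680501 with a p-value of 1e-279, and another of 390 nt began at 4680560 with a p-value of 7.9e-26. In F. nucleatum 2 a peak of 630 nt ended at 4680471 with a p-value of 1e-207, and another of 270 nt began at 4680680 with a p-value of 2e-29.

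The interruption lay at the end of the CDS. It was 58 nt long in F. nucleatum 1, all of it coding, and 208 nt in F. nucleatum 2, of which 157 nt were CDS with the stop codon and 51 nt 3′UTR. The stop codon was therefore inside a peak in both Control lists and in F. nucleatum 1 but not in F. nucleatum 2. The 58 nt from 4680502 to 4680559 were the only bases of PRNP in a peak of both Control and of neither F. nucleatum list, and 0 bases showed the reverse. No GGAC motif of PRNP lay in either interruption, and other forms of the consensus were not searched. One peak in each Control list and at least 2 in each F. nucleatum list was found in 148 of 11341 shared regions (1.3%), and the reverse in 119 (1.05%). Among 3462 shared regions within 1.5-fold of the length of this region, the shares were 2.57% and 1.96%. 

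**Figure D2:**
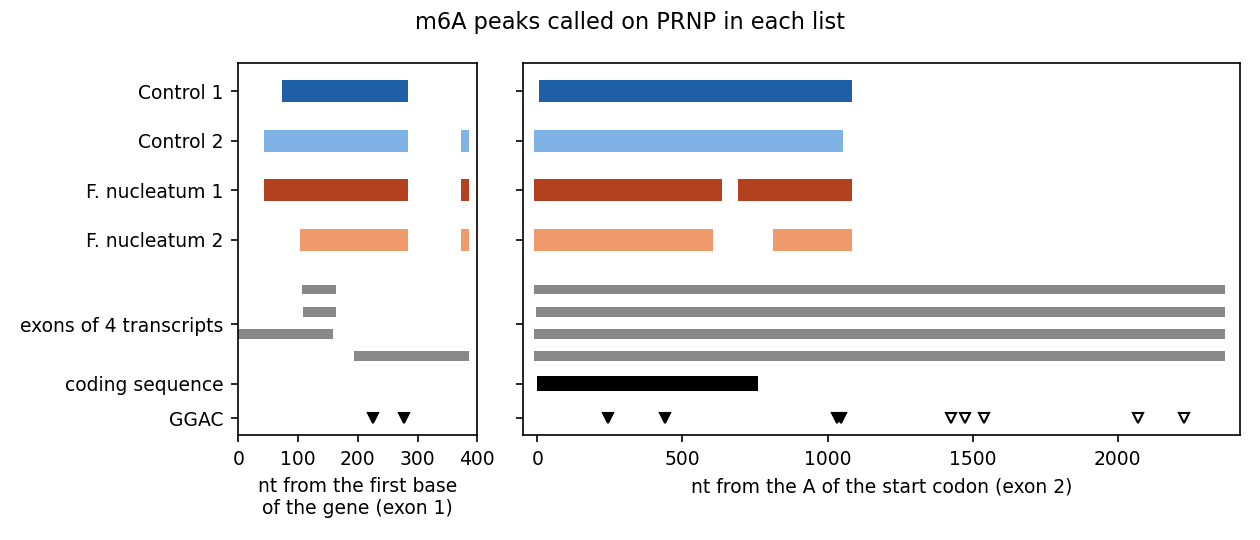
Peaks of PRNP in the 4 lists (coloured bars), exons of the 4 annotated transcripts (grey), the CDS (black) and GGAC motifs (filled where inside a peak in all 4 lists), with distance in nt from the first base of the gene for exon 1 and from the start codon for exon 2. Both F. nucleatum lists have a gap near the end of the CDS, of 58 and 208 nt, and no list has a peak in the last 1287 nt of the 3′UTR.

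Peaks covered 1289 and 1319 nt of PRNP in the lists of Control 1 and 2, while the lists of F. nucleatum 1 and 2 had 1291 and 1081 nt. The mean of 1304 ± 21.2 nt in Control and of 1186 ± 148 nt in F. nucleatum lists (SD, n = 2 each) differed by less than the spread between the F. nucleatum lists (two-sided exact permutation p 0.667). In all 4 lists together 1021 nt were covered, of 1349 nt in any list. The share of the CDS in a peak was 99.3% and 100% for Control but 92.4% and 79.4% for F. nucleatum. Of the 3′UTR 270 to 321 nt was covered, always within its first 321 nt. The second region held 4 GGAC motifs over 1108 nt, and 73.6% of 808 other regions of like length held at least as many, with a median of 5.

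The strongest PRNP peak did not follow the mRNA level of the table, but it was not the same stretch in all lists. In Control 1 and 2 it was 1078 nt long and took in the stop codon and part of the 3′UTR. In F. nucleatum 1 and 2 it was 660 and 630 nt long and ended before the stop codon. Its −log10 p was 190 in Control 1 and over 306 in Control 2, while F. nucleatum 1 had 279 and F. nucleatum 2 had 207. The weakest and the strongest of the 4 values were both from Control, so the groups overlapped. With the listed 0 set to the smallest value above 0, the means were 248 ± 82.1 and 243 ± 50.9 (SD, n = 2 each, two-sided exact permutation p 1), at a 7.61-fold difference in FPKM. The sign of this difference rested on single lists, as it ran from -63.0 without Control 1 to 53.0 without Control 2, and it was 31.0 without F. nucleatum 2.

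In Control cells this peak was far stronger than those of other genes at the same listed level. The matching, like the ratio of 7.61, rests on the deposited Control FPKM of PRNP, which were not checked against reads. PRNP was also selected on its low Control and high F. nucleatum FPKM. The shares of genes at these levels, given next, depend on that selection and are a description without a test. In Control 1, 2008 other genes within 1.5-fold of the FPKM of PRNP (4.42 to 9.94 FPKM) had a peak, with a median −log10 p of 21.8 for the strongest peak, and 7 of them (0.349%) reached that of PRNP. In Control 2, 1 of 2066 such genes (0.0484%) did, namely SNX22, a sorting nexin named after its values had been seen, and the median was 25.1. At the level of PRNP in F. nucleatum cells its peak was less unusual. In F. nucleatum 1, 59 of 889 genes within 1.5-fold of 51.6 FPKM (6.64%) reached the p-value of PRNP, with a median of 41.2, and in F. nucleatum 2 70 of 930 (7.53%), with a median of 42.4.

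Set against genes at the other treatment's level, the order turned round. Among genes of the Control libraries within 1.5-fold of 49.98 FPKM, the PRNP peak was reached by 12.4% of 916 in Control 1 and by 4.45% of 921 in Control 2. Among genes of the F. nucleatum libraries within 1.5-fold of 6.57 FPKM, it was reached by 1 of 2146 in F. nucleatum 1 (SNX22) and by 2 of 2037 in F. nucleatum 2 (SNX22 and RBM12). Thus in all 4 libraries 4.45% to 12.4% of the genes near the F. nucleatum level of PRNP had as strong a peak, and at most 0.349% of the genes near its Control level. The other genes were then limited to those whose strongest peak was within 1.5-fold of the length of that of PRNP in the same library. The PRNP peak was reached by 3 of 547 in Control 1 (PPP2R2D, SCO2 and TRIM13) and by 0 of 679 in Control 2. In F. nucleatum 1 and 2 it was reached by 32 of 362 and 36 of 386, where the PRNP peak was the shorter one. The share of PRNP fragments that was pulled down was not measured, since FPKM and p-values hold no counts, and why the peak and the level differ in this way was not tested.

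**Figure D3:**
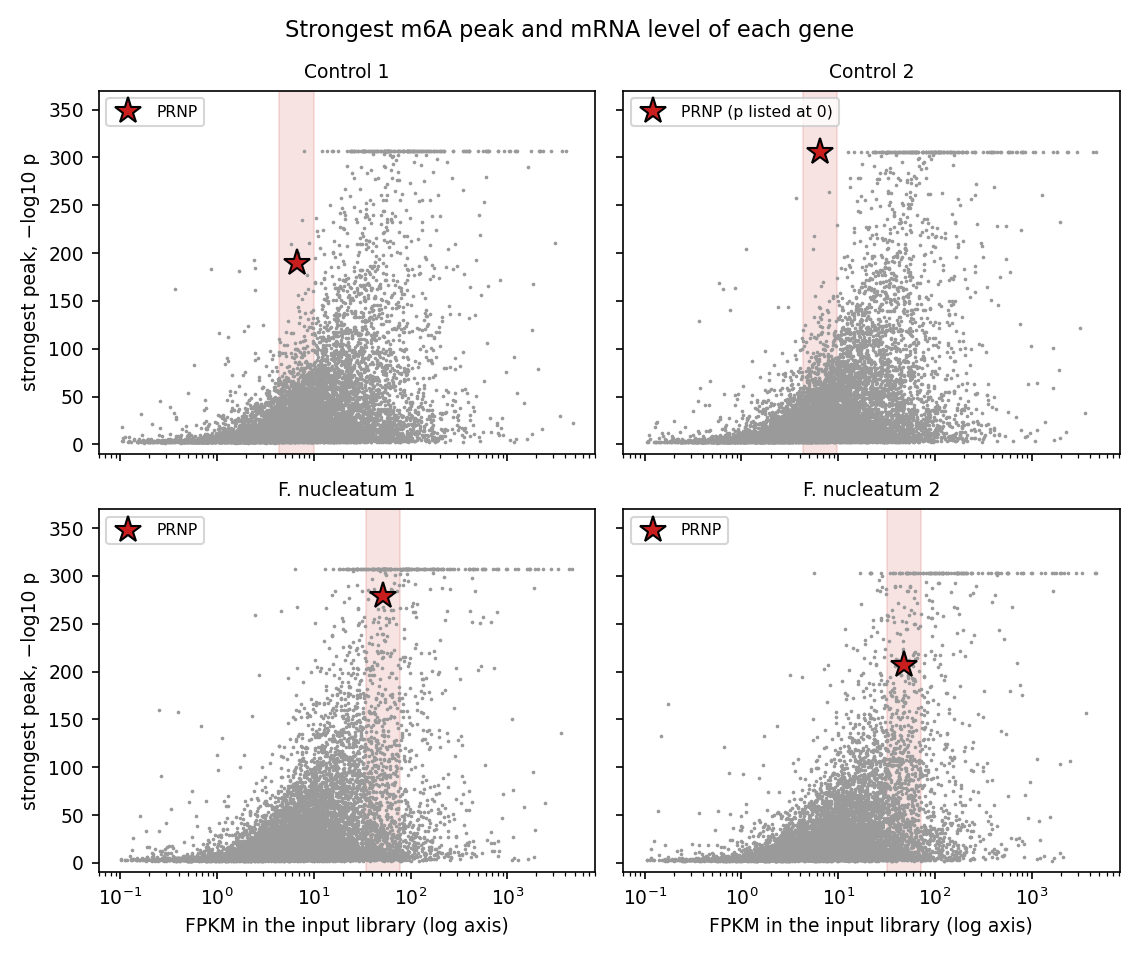
Strongest m6A peak of each gene as −log10 of its score, read as a p-value, against its FPKM in the same library (log axis), with 1 panel per library, grey points for genes and a star for PRNP, whose level is shaded to 1.5-fold on each side. In Control the star lies above nearly all genes of its level, with 7 of 2008 and 1 of 2066 others as strong, and in F. nucleatum libraries 59 of 889 and 70 of 930 are. Values listed at 0 are drawn at the smallest value above 0 of their list.

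Other raised genes were compared in the same way. Of the 17 other genes with an FPKM ratio of at least 4, 6 had no peak in any list and 8 had a peak in all 4 lists. The remaining genes were CXCL1 and LUZP6, with a peak in F. nucleatum 1 only, and BIRC3, with a peak in all lists but Control 1. LUZP6, whose ratio of 10.7 was above that of PRNP, had 1.64 and 0.0299 FPKM in Control 1 and 2. It had 0.571 FPKM in F. nucleatum 1 and 17.2 FPKM in F. nucleatum 2, so that its ratio came from 1 library. In NFKBIA the p-value of the strongest peak went from 2e-14 and 4e-17 to 2.5e-45 and 5e-50, and in NUAK2 from 0.00015 and 0.00012 to 1.6e-36 and 5e-34. ICAM1, an adhesion molecule for leukocytes, and TNFAIP3, the ubiquitin-editing inhibitor A20, also had stronger p-values in both F. nucleatum lists. This made 4 of the 8 genes, against 15.4% of 7616 tested genes with a peak in all 4 lists. In the other 4, IL6ST, LOC400927-CSNK1E, TOR1AIP2 and SLC35E2B, the lists of the treatments overlapped, as for PRNP. The 8 genes were taken for their raised FPKM, and a peak p-value depends on the amount of the mRNA. Their share is thus a description and does not measure m6A per mRNA. LOC400927-CSNK1E had 1.35 and 1.28 FPKM under Control, but F. nucleatum 1 had 0.057 FPKM and F. nucleatum 2 had 14.2 FPKM, so that its ratio came from 1 library. Beside NFKBIA and NUAK2, the raised genes other than PRNP were named here after their values had been seen. In the 8 genes the change of the mean −log10 p ran from -2.11 to 71.0 with a median of 10.7, and for PRNP it was -5.02. The starting points differed, as the 8 genes had a −log10 p of 2.80 to 61.5 in Control, and PRNP had 190 and over 306. The value of PRNP in Control 2 was listed at 0, so no list could show a stronger one. It entered the -5.02 as the smallest value above 0 of its list.

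LOC107984974, for which the table listed 0.00853 FPKM in Control 1, had a peak in every list, with a p-value of 6.3e-54 in Control 1, against 1.6e-61 in Control 2 and 7.9e-58 and 3.2e-52 in the F. nucleatum lists. Its p-values overlapped between the treatments while the listed level differed between the Control libraries. The chemokine genes next to PRNP in rank, CXCL2, CXCL3 and CCL20, had no peak in any list.

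The libraries were those of an epithelial line. The 7 epithelial markers, among them EPCAM and KRT8, were at 8.98 to 2286 FPKM. Of 16 markers of fibroblasts, leukocytes, endothelium and neural cells, 13 stayed under 1 FPKM in all 4 libraries, and 5 of these, COL1A2, LUM, DCN, CD3E and CDH5, were listed at 0. COL1A1, CD68 and MBP were at 3.78 to 9.30 FPKM in both groups. Peak lists held 17039 to 18365 peaks. The absolute depth of the libraries was not known.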

How the data were processed

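Groups and replicate numbers came from the sample labels. Per the labels and the methods of the study, the authors trimmed adapters, aligned reads to hg19 with HISAT2 2.1.0 and computed FPKM per gene with StringTie from the 4 input libraries. These FPKM were deposited in 1 table. They are scaled for length and total, and the StringTie version and annotation were not given in the sources used here. The authors deposited 1 peak list per replicate, whose score was read as a p-value from its range (0 to 0.012). The headers name it only a score, and whether it was corrected was not given in the sources used here. The methods name MACS2 with a Fisher exact test, but the lists are laid out in exon blocks with gene names, and which program wrote them was not settled. The lists give no counts, fold enrichment or value for uncalled stretches.

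Expression was fitted with limma 3.58.1 in R 4.3.3 (lmFit, eBayes with trend, no covariate) on log2(FPKM + 1) for the 11088 genes whose mean FPKM in the input reached 1, with Benjamini-Hochberg adjustment and a threshold of 0.05. The pseudocount of 1 understates changes of low genes. DESeq2, used by the authors, was not applicable, since FPKM are not counts. The fit was tested on simulated data. Peaks on the same strand sharing at least 1 bp of exon blocks were merged into regions. GGAC was searched on the mRNA strand in GRCh37, with GENCODE release 44. Exact permutation tests used SciPy 1.17.1, sequences pysam 0.24.0 and all other work NumPy 2.4.6, under Python 3.11.15.

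PRNP, the gene lists and the tests were chosen with earlier results of these data known. Named genes were PRNP, its family, its neighbours within 500 kb, the 3 genes above and below it in rank, the 5 nearest profiles, and in each list the called genes and the most abundant one. PRNT of the prion family was not analysed here. Alternatives were the pseudocount, the filter, scaling, the replicate block, the variance trend, the peak threshold, the overlap rule, the assignment of peaks by position and leaving out each library. The comparison of peak strength at a matched FPKM was added after seeing the data. The permutation test on the peak of the first PRNP region was not among those planned.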

Additional observations from a re-analysis of the deposited data

How the results depend on the processing

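The log2 difference of PRNP was 2.74 to 2.75 under the other filters, both scalings and the replicate block, and 2.91 with a pseudocount of 0.1. Its rank was 5 or 6 under these filters and scalings, and 10 with a pseudocount of 0.1. With a library left out the difference was 2.71 to 2.80 and the rank 6 to 8. The number of called genes was 89, and 40 without a filter on low values. Leaving out 1 library gave 16 to 284 called genes, and 0 to 7 in the lists against 4. The lone sample of a group was then assumed to vary like the other group.

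Replicate numbers did not show pairs of samples: the correlation over genes of the replicate differences in Control and F. nucleatum was 0.0243, and the fit with the replicate block called 90 genes and kept the 4 calls in the lists. 

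The bases of PRNP in peaks, the 2 shared regions and the 0 lost regions held at a peak p-value of at most 1e-05 and for peaks taken by position in place of name. A reciprocal overlap of 50% gave 1 gained region, made of the 2 shorter F. nucleatum peaks near the stop codon. The difference in −log10 p of the strongest peak ran from -63.0 to 53.0 when 1 list was left out. With a window of 2-fold in FPKM, 15 of 3363 and 2 of 3443 other genes reached the PRNP peak in the Control libraries, and 103 of 1540 and 112 of 1604 in the F. nucleatum libraries.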
